A study of Mus musculus with 7 samples.

Results

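The 10 genes described here encode kinesin motors that work on the mitotic spindle: Kif11, Kif15, Kif18a, Kif20a, Kif20b, Kif22, Kif23, Kif2c, Kif4 and Kifc1. They were given by name and matched by Ensembl identifier among the 15531 genes whose expression was compared between mouse embryonic fibroblasts (MEFs) with and without a 4.3 Mb deletion in region 4E2 of chromosome 4. All 10 were tested. RNA came from 7 independent primary MEF lines. The 4 Df/+Bl6 lines carried the deletion on a chromosome 4 of 129S5/SvEvBrd origin and an intact C57BL/6J homologue. The 3 +129/+Bl6 control lines were F1 hybrids of both strains without the deletion. The cross described for the embryos was of Df/Dp male chimeras with C57BL/6J females. Df/Dp stands for an ES cell line engineered to carry the deletion and the reciprocal duplication, so the deletion derives from 1 ES cell line. For the controls the paper's methods name F1 +129/+Bl6 crosses. Whether the control lines shared parents or cross with the Df/+Bl6 lines is thus not settled here. A difference of cross could not be told apart from the genotype. All lines shared the hybrid background, were taken at embryonic day 13.5 from bodies without heads, and were harvested at passage 4, 10 hours after confluency. No source used here states litters or batches of the lines, or their sex.

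Kinesins are ATP-driven motors that move along or remodel microtubules. During mitosis different kinesins push the spindle poles apart, move and align chromosomes, remove tubulin from microtubule ends and build the central spindle that directs cytokinesis, whereas other members of the superfamily carry cargo in non-dividing cells or build cilia. Many mitotic kinesin genes are transcribed mainly in G2 and M phase, so their RNA is known as a marker of proliferating cells. In a bulk culture, a larger share of cycling cells and more RNA per cycling cell cannot be told apart.

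The starts of these genes are shown first, since promoters of late cell cycle genes are known for a pair of short elements, the cell cycle genes homology region (CHR), bound by the MuvB complexes, and the CCAAT box, bound by NF-Y. Windows of 100 bases, made of the 75 bases before the RefSeq start and the first 25 transcribed bases, are given 5′ to 3′ in the direction of the gene for the 8 members that held at least 1 match, from GRCm38.p6 (mm10). They lie at chr19:37376307-37376406 (+) for Kif11, chr9:122951006-122951105 (+) for Kif15, chr2:109280663-109280762 (+) for Kif18a, chr19:34922283-34922382 (+) for Kif20b, chr7:127042396-127042495 (-) for Kif22, chr9:61946775-61946874 (-) for Kif23, chrX:100625990-100626089 (+) for Kif4 and chr17:33890609-33890708 (-) for Kifc1. Capitals mark CHR letters, TTTGAA or else the form TTTAAA. They also mark the box CCAAT itself and the E2F letters (TTTCCCGC, TTTCGCGC, TTTGCCGC or TTTGGCGC). Each motif was searched on both strands, so that TTCAAA shows a CHR match read from the opposite strand, as does ATTGG for the CCAAT box.
Kif11: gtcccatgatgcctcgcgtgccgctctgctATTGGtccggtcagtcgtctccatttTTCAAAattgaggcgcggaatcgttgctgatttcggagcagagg
Kif15: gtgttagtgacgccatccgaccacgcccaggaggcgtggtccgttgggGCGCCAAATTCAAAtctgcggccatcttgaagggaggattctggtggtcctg
Kif18a: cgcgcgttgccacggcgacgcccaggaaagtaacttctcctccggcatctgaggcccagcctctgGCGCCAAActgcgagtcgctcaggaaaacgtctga
Kif20b: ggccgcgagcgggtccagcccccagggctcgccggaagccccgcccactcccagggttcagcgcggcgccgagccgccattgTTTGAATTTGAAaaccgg
Kif22: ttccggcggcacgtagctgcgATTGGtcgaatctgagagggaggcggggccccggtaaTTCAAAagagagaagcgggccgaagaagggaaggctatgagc
Kif23: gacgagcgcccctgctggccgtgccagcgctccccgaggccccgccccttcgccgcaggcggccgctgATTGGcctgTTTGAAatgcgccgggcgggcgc
Kif4: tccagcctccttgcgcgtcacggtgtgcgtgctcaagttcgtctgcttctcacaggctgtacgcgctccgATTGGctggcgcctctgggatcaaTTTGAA
Kifc1: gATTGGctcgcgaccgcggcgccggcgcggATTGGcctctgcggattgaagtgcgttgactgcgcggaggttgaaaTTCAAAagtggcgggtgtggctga

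A CHR match lay in this window in 7 of the 9 members with a RefSeq window, against 8.88% of all 32851 RefSeq windows of the same length. All 7 used the form TTTGAA, which 5.24% of all windows held. CCAAT was present in 5 of 9 members and in 16.8% of all windows, and the 5 members with CCAAT, Kif11, Kif22, Kif23, Kif4 and Kifc1, also had the CHR letters, a combination found in 1.54% of all windows. In Kif11 and Kif15 the CHR letters stood at -19 to -14, counted from the start with +1 as its first base, and in Kif22 at -17 to -12. In Kif20b a pair of copies ran on without a gap, at 8 to 13 and 14 to 19. E2F letters occurred in Kif15 at -27 to -20, directly before its CHR match, and in Kif18a at -10 to -3, against 0.822% of all windows. The windows of Kif18a, which had no CHR or CCAAT match, and of Kif15 were the only ones of the 9 with E2F letters. Kif2c had no match of any of these motifs near its start. The Kif2c start used lies inside the annotated gene (start at 117178772, gene end at 117182624 on the minus strand). Those of Kif22 (127042420, gene end 127042467) and Kif23 (61946799, gene end 61946810), both on the minus strand, also do, by fewer bases. The same holds for Kif20b (34922358, gene start 34922335, plus strand). All positions given here count from the starts used. In the whole windows of 300 bases, 250 before the start and 50 from it on, CHR letters were found in 8 of 9 members against 27.6% of all, and CCAAT in 5 of 9 against 37.4%. Among other kinesins, CHR letters near the start were found in 3 of 7 further mitotic kinesins and in 3 of 18 transport and ciliary kinesins. CCAAT near the start was found in 5 of 7 further mitotic kinesins, a larger share than among the members, and in 3 of 18 transport and ciliary kinesins. In the 300-base windows it was found in 6 of 7 and 6 of 18. These matches describe letters, and binding of a factor was not measured.

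**Figure D1:**
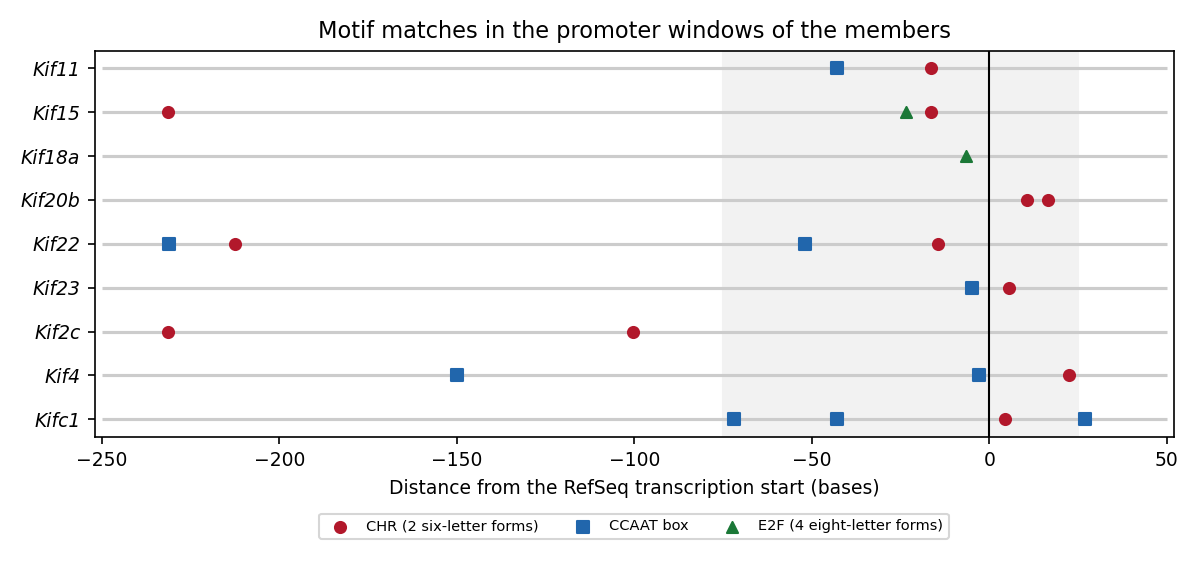
Positions of CHR, CCAAT and E2F letters in the 300-base RefSeq windows of 9 member genes; the x axis gives the distance from the transcription start in bases, each symbol is the middle of 1 match on either strand, and the shaded span is the 100-base window printed in the text. CHR circles lie in the shaded span for 7 of the 9 genes, and CCAAT squares for 5.

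The values are mean normalized counts per gene, averaged by the authors over the lines of a genotype. They were deposited for the genes past the authors' false discovery rate (FDR) limit of 0.05, which are called listed here, in a combined table for both alleles and in a table for each allele. Ratios of Df/+Bl6 over +129/+Bl6 were computed here from these means. No value per line was used, so they come without SD, standard error or test between lines, and the depth behind them cannot be stated. Whether members next to each other in an order differ beyond their spread was not tested. As a check of the labels, 23 of the 37 tested genes between the flanks of the deletion, Rere and Ski, were listed in the combined table, all lower in Df/+Bl6, with a median log2 ratio of -1.004. On the 129S5 allele 21 of them were listed, all lower, with a median of -7.69. On the intact C57BL/6J allele 11 of the 37 were listed, also all lower, with a median of -0.87 and a range from -1.70 to -0.61. Lower values in the interval were thus not confined to the values of the 129S5 allele. Whether the assignment of reads to alleles has a part in this was not tested. The allelic ratios of the kinesins come from these same tables. Of 12 fibroblast markers 12 were tested, and 1 was listed, fibronectin (Fn1), at 2121647 in Df/+Bl6 and 3418220 in +129/+Bl6 MEFs. Being tested means only that a gene passed a low limit of reads, which most markers of endothelium and macrophages passed too. The cell type was therefore not checked by these counts.

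Of the 10 mitotic kinesins, 9 were listed in the combined comparison, and all 9 were higher in Df/+Bl6 MEFs, by 1.88- to 3.29-fold. Over all tested genes, 8.67% were listed, 5.13% as higher and 3.54% as lower. The median log2 ratio of the 9 was 1.34, against 0.80 over the 796 genes listed as higher and 0.61 over all 1346 listed genes. A log2 ratio of at least 1 was reached by 7 of the 9, and by 28.3% of all genes listed as higher. Kifc1 was tested and not listed in any table, so its level is not given. The 10 members lie on 8 chromosomes. The summed mean of the 9 listed ones, 55763 in Df/+Bl6, stood 2.28-fold above the 24422 of +129/+Bl6 MEFs.

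Among the motors that set up the spindle, Kif11, the plus-end motor that slides antiparallel microtubules apart and separates the poles, had a mean normalized count of 6282 in Df/+Bl6 and 2041 in +129/+Bl6 MEFs. This was a 3.08-fold difference, a log2 ratio of 1.62, and rank 25 of the 796 higher genes (ENSMUSG00000012443, chr19:37376382-37421863, the span of the gene in mm10, as for the members that follow). Kif15, which helps to keep the spindle bipolar and can take over part of the work of Kif11, had 3126 against 1099, a log2 ratio of 1.51 (ENSMUSG00000036768, chr9:122951081-123018733). Kif11 and Kif15 thus had similar ratios at means that differed between the genes. Kifc1, a minus-end motor that cross-links microtubules and focuses the poles, was the member not listed (ENSMUSG00000079553, chr17:33875664-33890633). Part of its transcript cannot be told from its relative Kifc5b, as 23.8% of its 100-base windows occur there on the same strand. The other 76.2% were unique. Reads with more than 1 best location were left out by the authors, and whether this bears on the call of Kifc1 was not tested.

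Of the motors that act on chromosomes and kinetochores, Kif18a, which limits the length of kinetochore microtubules and dampens chromosome movements, had the lowest means of the 9 listed members, 1212 in Df/+Bl6 and 422 in +129/+Bl6. Its log2 ratio was 1.52 (ENSMUSG00000027115, chr2:109280738-109341749). Kif2c, the microtubule depolymerase that corrects faulty attachments at centromeres, had 5888 against 2769, a log2 ratio of 1.09 (ENSMUSG00000028678, chr4:117159633-117182624). Kif2c is the member on the chromosome with the deletion, 33.1 Mb before Rere. Kif22, a chromokinesin that pushes chromosome arms away from the poles, had 4269 against 2229, a log2 ratio of 0.94 (ENSMUSG00000030677, chr7:127027729-127042467). Kif4, a chromokinesin that also works with Prc1 to limit microtubule growth in the midzone, had 5960 against 2532, a log2 ratio of 1.23 (ENSMUSG00000034311, chrX:100626065-100727271). The log2 ratios of these 4 members ran from 0.94 for Kif22, near the bottom of the range of the 9, to 1.52 for Kif18a.

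The motors of the central spindle and cytokinesis included both extremes. Kif20b, which acts late in cytokinesis, had 5567 in Df/+Bl6 and 1694 in +129/+Bl6 MEFs, the highest ratio of the members, with a log2 ratio of 1.72 and rank 13 of 796 (ENSMUSG00000024795, chr19:34922335-34975750). Kif20a, which brings the chromosomal passenger complex to the central spindle, had 17236 against 9170, the lowest ratio of the listed members, with a log2 ratio of 0.91 and rank 299 (ENSMUSG00000003779, chr18:34624624-34633277). Kif20a and Kif20b are relatives in the same kinesin family. Kif23, the motor subunit of centralspindlin, had 6223 against 2466, and its log2 ratio of 1.34 was the middle value of the 9 (ENSMUSG00000032254, chr9:61917277-61946810). Kif20a alone made up 30.9% of the summed mean of the 9 in Df/+Bl6 and 37.5% in +129/+Bl6 MEFs.

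Levels of different genes were compared per kilobase of the longest annotated transcript. On this scale Kif20a was highest, at 4832 mean normalized counts per kb in Df/+Bl6 and 2571 in +129/+Bl6, and Kif18a was lowest, at 360 and 125. In Df/+Bl6 the order was Kif20a, Kif2c, Kif22, Kif23, Kif11, Kif4, Kif20b, Kif15 and Kif18a. Kif2c and Kif22, next to each other at 2072 and 2069, were close to equal. The highest member stood 13.4-fold above the lowest in Df/+Bl6 and 20.5-fold in +129/+Bl6 MEFs. Counts of Kif20a and Kif4 may hold reads of neighbours on the other strand: 26.2% of the 100-base windows of the Kif20a transcript lie opposite Cdc23, and 12.0% of those of Kif4 lie opposite Pdzd11. The libraries were stranded, but use of the strand in counting is not given in the sources used here. Without these 2 members the median log2 ratio of the remaining 7 was 1.51, an alternative chosen after seeing the data.

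**Figure D2:**
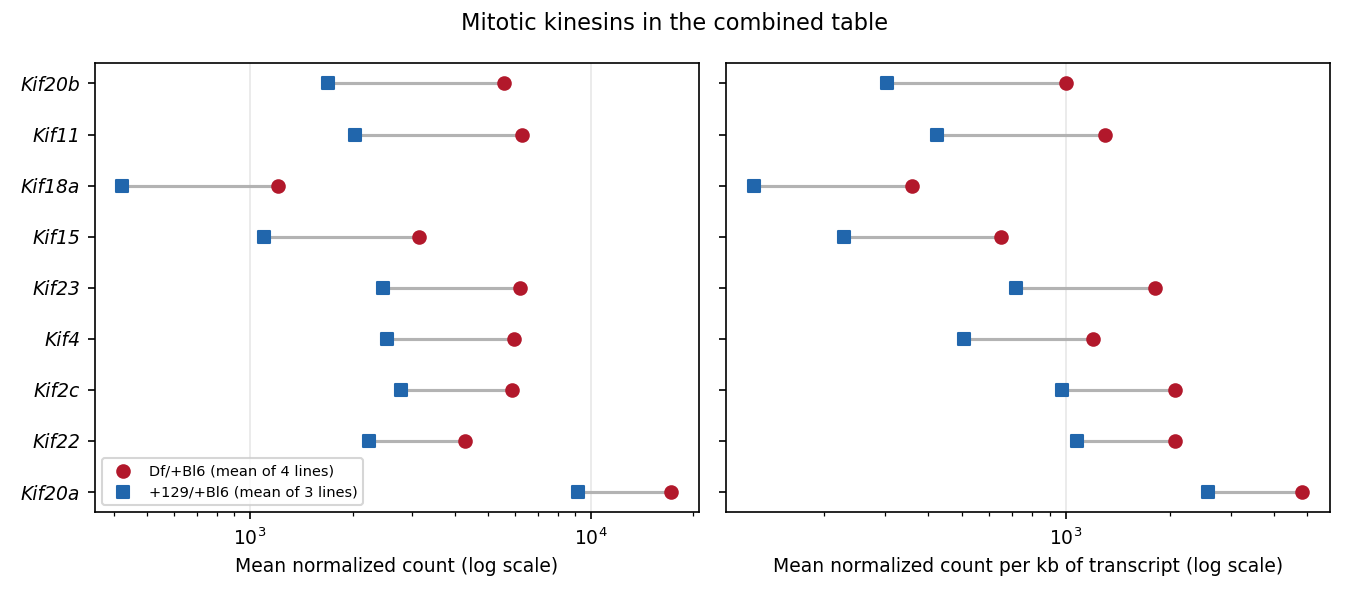
Mean normalized counts of the 9 listed members (left) and the same values per kb of transcript (right), both on log axes, with Df/+Bl6 (circles, mean of 4 lines) joined to +129/+Bl6 (squares, mean of 3 lines); no error is drawn because no value per line was used. Each circle lies to the right of its square, and members are ordered by ratio from Kif20b (log2 ratio 1.72) down to Kif20a (0.91).

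By the paper's methods, the allelic tables count only reads mapped to the transcriptome of the strain in question. Whether such reads had to carry a difference between the strains is not stated there. These tables come from the same lines as the combined table and are normalized separately. Levels are therefore not compared between tables, and the ratios are not independent of the combined ones. On the 129S5 allele 2 of the 9 members were listed, against 16.3% of all 1346 genes of the combined table. On the C57BL/6J allele 3 of 9 were listed, against 21.4%. Which genes were tested per allele was not known here, so nothing follows for the members absent from these tables.

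Kif11 had 73.8 in Df/+Bl6 and 24.2 in +129/+Bl6 on the 129S5 allele, a log2 ratio of 1.61. On the C57BL/6J allele the means of Kif11 were 274 and 63.6, a log2 ratio of 2.11. These means were the lowest among the members in each allelic table, and with 10 normalized counts added to both means the ratios became 1.29 and 1.95. Kif23 had 608 against 264 on the 129S5 allele, a log2 ratio of 1.21, and 743 against 282 on the C57BL/6J allele, a log2 ratio of 1.40. Kif20a was listed on the C57BL/6J allele, with 520 against 278 and a log2 ratio of 0.90, next to 0.91 in the combined table. For Kif11 and Kif23 the log2 ratio was thus above 1 on each allele. The difference between the alleles, C57BL/6J minus 129S5, was 0.50 for Kif11 and 0.19 for Kif23, and was not tested.

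The remaining mitotic kinesins moved the same way. All 6 that were tested, of 7, were listed as higher in Df/+Bl6 MEFs. Cenpe, the kinetochore motor that carries chromosomes to the spindle equator, had 10517 against 2965, a log2 ratio of 1.83, which lies above that of every member. Kif14, which acts with citron kinase in cytokinesis, had 2290 against 885 (1.37), and Kif18b, which shortens astral microtubules, had 3945 against 2055 (0.94). The log2 ratios of Kifc5b, Kif24, which acts at the mother centriole, and Kif2a, a depolymerase used in spindles and in neurons, were 0.82, 0.65 and 0.63, below that of every listed member. Kifc5b had 1123 against 638, with 21.2% of its windows shared with Kifc1.

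By contrast, none of the 24 tested transport and ciliary kinesins was listed as higher. Of these, 2 were listed as lower: Kif1a, a motor for synaptic and dense-core vesicles, with 16898 in Df/+Bl6 and 37170 in +129/+Bl6 MEFs (log2 ratio -1.14), and Kif1c, a vesicle motor of many tissues, with 45518 and 68085 (-0.58). The other 22 were not listed, among them Kif1b, 0.974 Mb before Rere. With the members included, 15 of 16 tested mitotic kinesins and 0 of 24 tested transport and ciliary kinesins were higher, over a background of 5.13%. This split depends on how the lists were drawn, which was done with earlier results of these data known. Kif24 (log2 ratio 0.65), which acts at the mother centriole, was placed with the mitotic and not with the ciliary kinesins. Of 10 kinesin light chain and adaptor genes, Klc3, a light chain, was listed, with 714 against 1223 (-0.78). Beside Kif11 and Kif23, 5 further kinesin genes were listed on both alleles: Cenpe (log2 ratio 1.68 on the 129S5 and 1.78 on the C57BL/6J allele), Kif14 (1.24 and 1.45), Kif18b (0.88 and 0.98), Kif1a (-1.08 and -1.07) and Klc3 (-1.05 and -0.78). Kif1c was listed on the C57BL/6J allele, at -0.62. All 7 genes had the same direction on both alleles, with differences between the alleles from 0.01 to 0.50 in size. Outside the deletion, the paper reports a high correlation of allelic fold changes over the genes that changed on both alleles. Agreement in direction is thus not particular to kinesins, and its share over all such genes was not computed here.

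**Figure D3:**
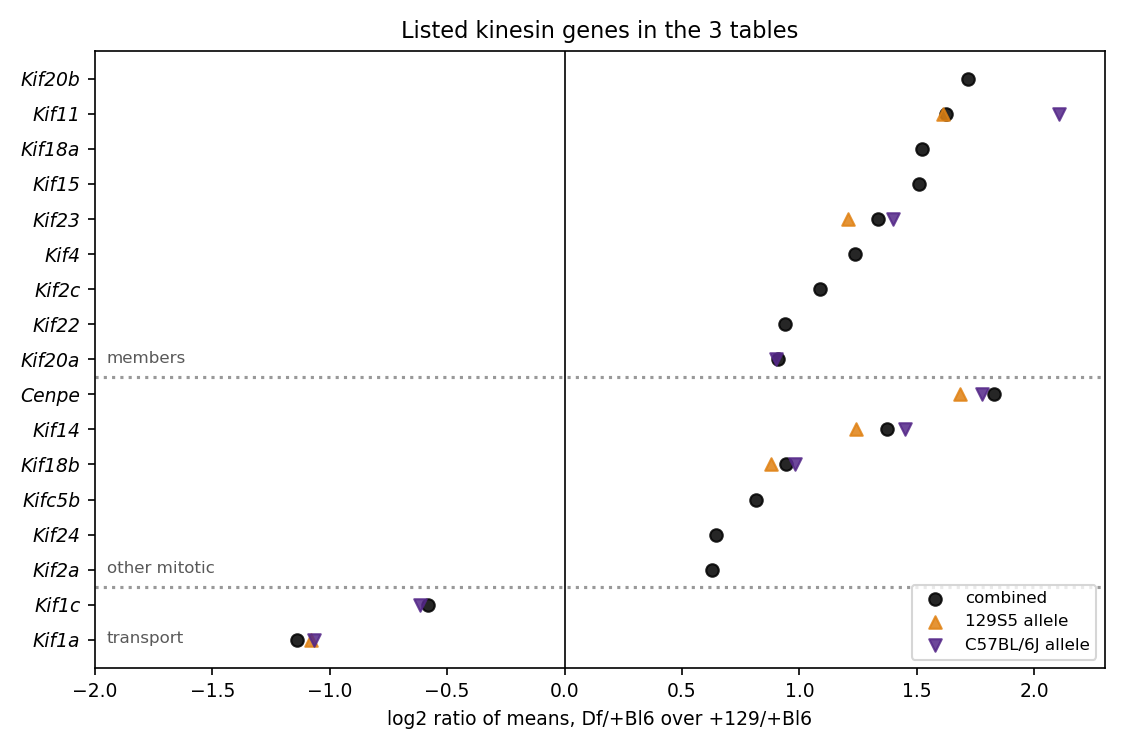
log2 ratios of mean normalized counts, Df/+Bl6 over +129/+Bl6, of each listed kinesin motor gene in the combined table (circles) and, where listed, on the 129S5 (upward triangles) and C57BL/6J allele (downward triangles), grouped into members, other mitotic and transport kinesins. The 15 mitotic kinesins lie right of 0 and the 2 transport kinesins left of it in each table that lists them.

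**Figure D4:**
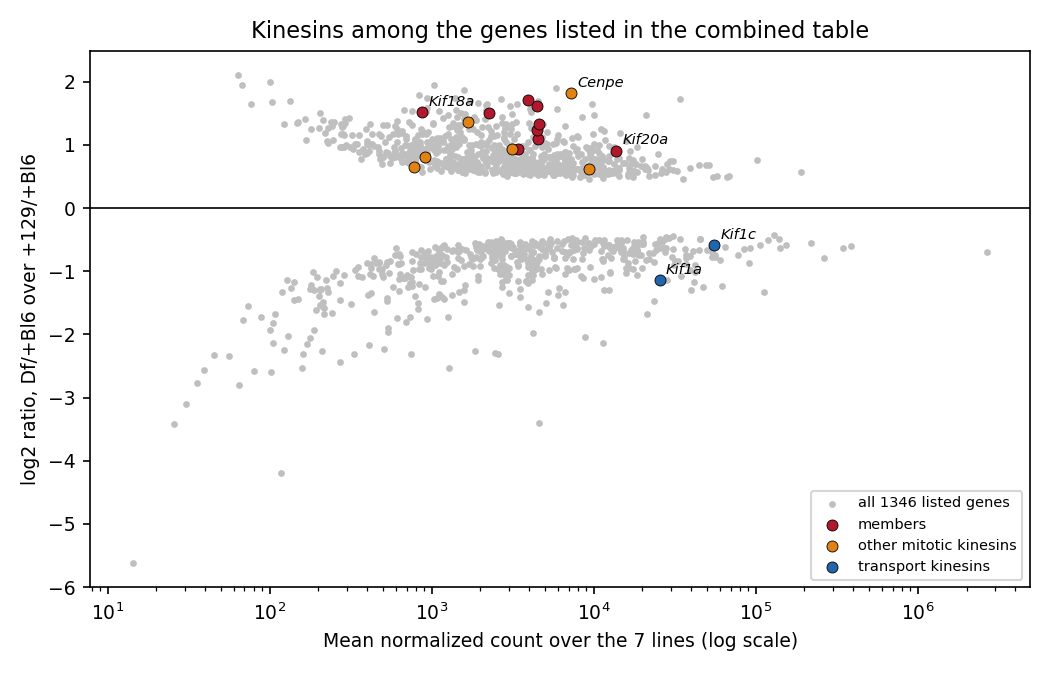
log2 ratio of Df/+Bl6 over +129/+Bl6 against the mean normalized count over the 7 lines (log axis) for all 1346 genes of the combined table (grey), with members, other mitotic and transport kinesins in colour. The members lie in the upper part of the cloud of higher genes, from 0.91 for Kif20a to 1.72 for Kif20b; the gap around 0 is there because unlisted genes have no value.

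The proteins that work with these motors were described by a list of spindle and cytokinesis partners, drawn with earlier results of these data known. Of its 23 tested genes, 21 were higher, against 5.13% of all tested genes. None was lower, and Numa1 and Mapre1 were not listed. Their median log2 ratio was 1.02, below the 1.34 of the members. The 6 partners with the largest ratios were Cep55, a midbody scaffold (3025 against 1028, log2 ratio 1.56), Ska1, a kinetochore subunit (1059 against 366, 1.53), Ect2, the exchange factor that activates RhoA for cytokinesis (5385 against 2116, 1.35), Hmmr, a spindle assembly factor (6564 against 2620, 1.33), Ckap2l, a spindle protein (8963 against 3652, 1.30), and Prc1, which bundles midzone microtubules and recruits Kif4 (15272 against 6572, 1.22). Racgap1, which joins Kif23 in centralspindlin, had 13309.5 against 7295, a log2 ratio of 0.87, beside 1.34 for Kif23. It was named after its values were seen.

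Counts in other parts of the microtubule system were small and are to be read against the 8.67% of all tested genes that were listed. None of 19 tested subunits of cytoplasmic dynein and dynactin, the minus-end transport machinery, was listed, and of 13 tubulins 1 was, Tube1, the epsilon-tubulin of centrioles (365 against 186, 0.98). Cell cycle markers other than kinesins moved with the members. Of 25 tested G2/M markers 23 were higher, with a median of 1.17, led by Cenpf (1.91), Mki67 (1.72) and Ttk (1.69), and of 22 S phase markers 18 were higher, with a median of 0.88, led by Hells (1.69), Pola1 (1.49) and Cdc6 (1.30). The summed mean of the 23 G2/M genes was 204964 in Df/+Bl6 and 82343 in +129/+Bl6, and that of the 18 S phase genes 171322 and 91902. None of these genes was listed as lower. Of the 5 listed genes nearest to the members' medians of ratio and level, 3 belonged to one of the lists described here. For scale, the G2/M, partner and S phase lists held 23, 21 and 18 of all 1346 listed genes. The 5 genes were picked by the same ratios and levels, so this count describes likeness only.

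Markers of other cell types were read beside these values. Of 6 Schwann and neural crest markers 5 were listed, all lower in Df/+Bl6, where 3.54% of all tested genes were listed as lower. This list, too, was drawn with earlier results of these data known. The 5 included S100b (123 against 615, log2 ratio -2.32), Ngfr (443 against 1334, -1.59) and Sox10 (113 against 326, -1.53). The summed mean of the 5 was 897 in Df/+Bl6 and 2762 in +129/+Bl6, and none was at 0. No tested marker of skeletal muscle (6), macrophages (5), endothelium (5), epithelium (4), hepatocytes (1) or cartilage (4) was listed. The part of these cell types and of the share of cycling cells in the kinesin values was not tested.

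The base composition of the transcripts moved with the result, over all genes and among the members. When the 14073 tested genes with an annotated transcript were put into 5 equal groups by GC content, the share listed as higher in Df/+Bl6 was 16.0% in the group of lowest GC (31.9% to 44.5%), then 6.61%, 2.42% and 1.60%, and 0.568% in the group of highest GC (56.1% to 76.5%). The share listed as lower went the other way, from 0.533% through 1.56%, 2.81% and 5.69% to 8.45%. From the lowest to the highest group, 4, 3, 1, 1 and 1 members fell in each. The 9 listed members were in the first 4 groups, and Kifc1, with 57.1% GC, was in the group of highest GC.

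Among the listed members, the 4 of lowest GC, Kif18a (38.3%), Kif20b (39.4%), Kif11 (42.2%) and Kif15 (42.7%), had log2 ratios from 1.51 to 1.72. The other 5, Kif23 (46.5%), Kif4 (48.1%), Kif20a (48.6%), Kif2c (50.3%) and Kif22 (53.6%), had ratios from 0.91 to 1.34. This cut into 4 and 5 members was not set in advance. How often such a cut separates other sets of genes was not computed. Kifc1, not being listed, has no ratio here. Spearman's rho of ratio against GC was -0.90 over the 9 members, with Pearson's r of -0.91. It was -0.55 over the 15 listed mitotic kinesins, -0.56 over 21 partners, -0.77 over 23 G2/M markers and -0.47 over 18 S phase markers. Over the 764 higher genes with a transcript it was -0.04, and over 1300 listed genes of both directions -0.63. These are relations across genes, which share the same 7 libraries and are not independent replicates. Transcript length gave a rho of 0.57 with the ratio over the 9 members and 0.21 over all listed genes, and the mean count gave -0.50 over the 9. Median GC was 47.3% for the 16 tested mitotic kinesins and 52.7% for the 24 transport and ciliary ones. Restricted to the GC groups that hold listed members, the background of higher genes was 6.64%, a comparison chosen after seeing the data. These groups count equally in that share, although 4 and 3 of the listed members lie in the lowest and second group. In those groups 16.0% and 6.61% of genes were higher, so 6.64% is not matched to the members' GC content. The part of GC content in the ratios was not tested.

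**Figure D5:**
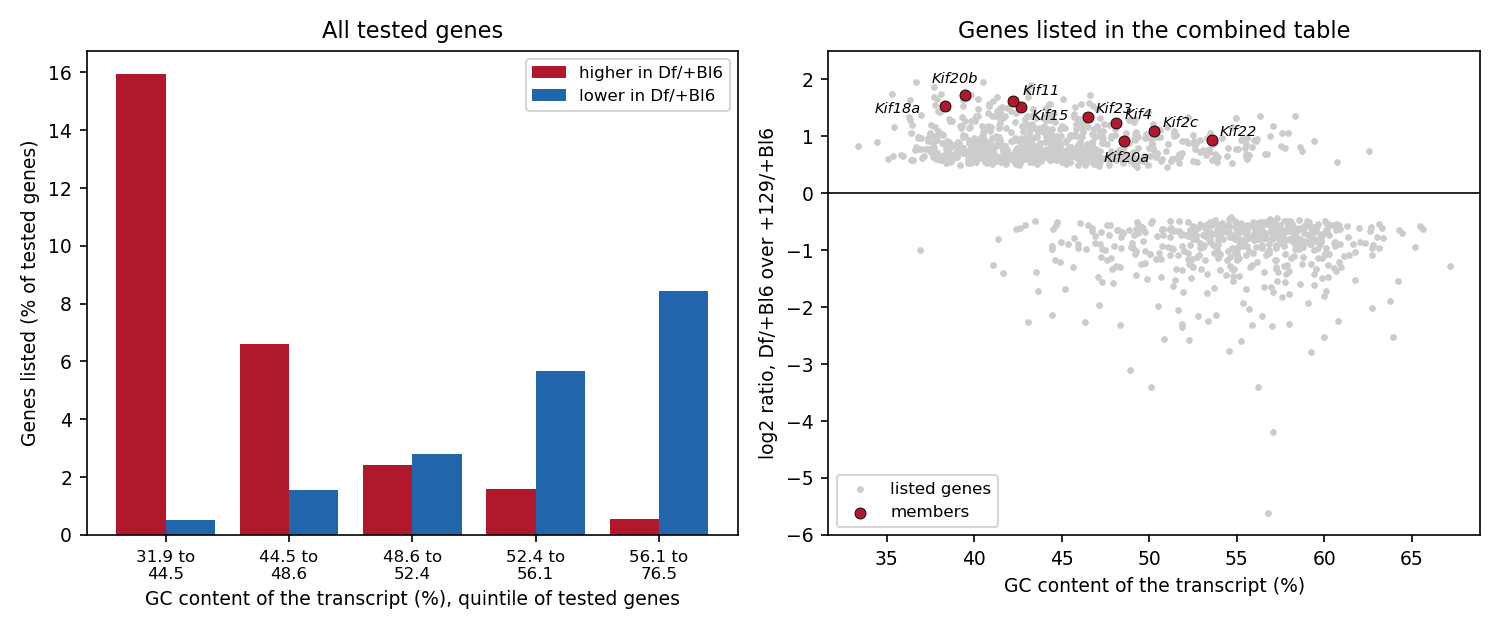
Left, share of tested genes listed as higher (red) or lower (blue) in Df/+Bl6, in percent, in 5 equal groups of transcript GC content. Right, log2 ratio against transcript GC content (%) for genes of the combined table (grey) and the 9 listed members (red), with the share of higher genes going from 16.0% to 0.568% on the left and the members going from 1.72 to 0.91 on the right.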

How the data were processed

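RNA-seq of 7 MEF lines was used, grouped by the genotype in the sample labels. The authors aligned stranded, paired-end polyA+ reads with GSNAP, allowing no mismatch, to the longest transcript per gene (Ensembl release 72, GRCm38/mm10, per the paper's methods and the submitters' processing notes) and to the same transcripts with 129S5/SvEvBrd variants, kept pairs with 1 best location, and left out genes with fewer than 10 reads per allele across genotypes. The deposited signal values used are mean normalized counts per genotype, which the authors scaled by DESeq size factors. The overall mean equals 4 parts Df/+Bl6 and 3 parts +129/+Bl6 in every row. Fold changes, log2 fold changes and p-values of the authors' own comparison are also in these tables and were not used, other than that a gene is listed at the FDR limit of 0.05. A further table holds 9 unnamed columns of values, more than the 7 lines, which were not used. Its identifiers gave the 15531 tested genes. The planned fits across lines could therefore not be run, and depth is unknown.

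log2 ratios were taken from the means, without a pseudocount. Symbols came from the gene name table, which named 14963 of the tested genes. Lengths, GC and shared windows came from the longest protein-coding GENCODE M1 transcript, found for 14073 tested genes. Positions and promoter windows came from RefSeq, GRCm38.p6, which matched 9 of the 10 members, all but Kif20a. The members and lists were chosen with earlier results of these data known. Named genes were all members, every listed kinesin, the 6 partners of largest ratio, and up to 3 of each other list. Numa1, Mapre1, Racgap1 and Kif1b were named after their values or calls were seen. Scripts were checked on simulated data. Python 3.11.15, numpy 2.4.6, pandas 2.3.3, scipy 1.17.1 and matplotlib 3.10.9 were used.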

Additional observations from a re-analysis of the deposited data

How the results depend on the processing

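Of the alternatives, only the centring on the median of all listed genes could have changed the direction of a member. All 14 centred values of members over the 3 tables stayed above 0, the lowest at 0.22. A pseudocount added to both means, or a choice of fewer members, cannot change a direction, so those settings bear on size only. With 10 normalized counts added to both means, the median log2 ratio of the members was 1.33 in the combined table, where it had been 1.34, and 1.23 on the 129S5 allele, where it had been 1.41. Centred on the median of all listed genes, a shift of 0.61 in the combined, 0.64 in the 129S5 and 0.69 in the C57BL/6J table, the medians were 0.73, 0.77 and 0.71. The shift rests on listed genes only, and 3 genes of the 129S5 table with a mean of 0 were left out of it. Without Kif20a and Kif4, an alternative chosen after seeing the data, the combined median was 1.51. With listed genes of a mean of at least 1000 only, it was 1.29 over 8 members. With a log2 ratio of at least 1 also required, 7 of 9 members remained in the combined table, 2 of 2 on the 129S5 allele and 2 of 3 on the C57BL/6J allele. The background of higher genes was 4.71% without the other cell cycle genes of the lists. Leaving out each line was not run because no value per line was used. No paired analysis was possible because the columns used are means over lines and carry no replicate numbers.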
